A study of Mus musculus with 42 samples.

Results

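Nono, Taf1, Ogt, Ercc6l, Rps4x and Cited1 are 6 genes that lie near each other on the mouse X chromosome, listed here in their order along it. They were chosen by their behaviour in 1 table, in which the paternal share of these genes was seen to follow the embryo-wide median weakly. They are 6 of the 24083 genes in the stage table, 6 of 23986 in the morula table and 6 of 1052 X-linked genes in the table of EedmNull embryos. Because the values of the EedmNull embryos picked the members, those values are given as a description, with no test.

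Allele-resolved RNA was measured by Smart-seq2, a full-length method for small numbers of cells, in 42 mouse embryo samples. Xp XRRa KO female morulae (4 samples) carried a paternal X chromosome from which the region XRRa was deleted. They were set beside control female morulae (3 samples) and control male morulae (4 samples). EedmNull samples were extraembryonic ectoderm (ExE) of 13 female E7.5 embryos from Eedfl/fl;Gdf9-Cre mothers and wild-type PWK/PhJ fathers; Gdf9-Cre acts in the oocyte, so the embryos lacked the maternal store of Eed and kept a paternal copy of the gene. Wild-type female samples were 8-cell embryos (3), morulae (3), inner cell mass at E3.5 (ICM, 2), trophectoderm at E3.5 (TE, 3), epiblast at E6.5 (1), visceral endoderm at E6.5 (VE, 3), ExE at E6.5 (2) and yolk sac at E9.5 (1). All embryos but the EedmNull ones came from C57BL/6N mothers and PWK/PhJ fathers. Every cross had a PWK/PhJ father, so the strain of an allele and its parent of origin cannot be told apart.

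One of the X chromosomes in each female mammalian cell is silenced. In mouse preimplantation embryos the paternal X is the one silenced first, by the noncoding RNA Xist, and it stays silent in extraembryonic tissues such as ExE and VE, whereas the epiblast reactivates it and later silences either X at random. Eed is a core subunit of PRC2, the Polycomb complex that writes H3K27me3 on silenced chromatin, and PRC2 deposited in the oocyte is known to set up the imprint that makes the paternal X the silenced one. Some X-linked genes, called escape genes, are transcribed from the silent X as well. Each of the 6 genes has a housekeeping or regulatory role. Nono is an RNA- and DNA-binding protein of the DBHS family found in paraspeckles. Taf1 is the largest subunit of the general transcription factor TFIID. Ogt adds O-GlcNAc sugars to nuclear and cytoplasmic proteins. Ercc6l, also called PICH, is a DNA translocase on the ultrafine bridges between sister chromatids in anaphase. Rps4x is a protein of the small ribosomal subunit, and Cited1 is a transcriptional coregulator that binds CBP and p300.

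The values were FPKM (fragments per kilobase, scaled to sequencing depth) per allele, and the paternal share is the paternal FPKM over the sum of both alleles, given for totals of at least 1 FPKM. Outside the EedmNull table the authors pooled each group into 1 column per allele, so those values have no spread. The tables gave no counts, so the read depth behind a share is unknown. Genes of higher FPKM, such as Rps4x and Nono, rest on more reads per unit length than Taf1 or Ercc6l. The leading marker genes followed the tissue labels, with some departures. In ICM all 5 TE markers were at 1 FPKM or more and summed to 1124 FPKM, against 3463 FPKM in TE, while the 5 ICM markers summed to 465 FPKM in ICM and 43 FPKM in TE. Bmp4, an ExE marker, stood at 36.3 FPKM in ICM and was listed at 0 in TE. In the VE column Fgf5 stood at 91.9 FPKM, the only 1 of 4 epiblast markers at 1 FPKM or more (sum 92.4 FPKM). The trophoblast marker Eomes stood at 59.2 FPKM there, the only 1 of 5 ExE markers at 1 FPKM or more (sum 61.2 FPKM). The 5 VE markers summed to 233 FPKM in ExE against 2693 FPKM in VE. Of 5 maternal decidua markers, Bmp2 stood at 16.02 FPKM in VE and the others were at or near 0 in VE and ExE. In the EedmNull table, which holds X-linked genes only, the placental genes Plac1, Rhox6 and Rhox9 were at 1 FPKM or more in 13 of 13 embryos, Rhox4e in 11 and Esx1 in 6.

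The promoters of Nono and Taf1 are shown because Taf1 had the highest and Nono the lowest share of the 6 in morulae, TE and control female morulae, although no gene with a measured share lies between them. Each line holds the 250 bases before the RefSeq start in GRCm38.p6, 5′ to 3′ on the gene's own strand, with CG dinucleotides in capitals. The Nono window is chrX:101429401-101429650 on the plus strand and the Taf1 window is chrX:101532485-101532734 on the plus strand.
Nono: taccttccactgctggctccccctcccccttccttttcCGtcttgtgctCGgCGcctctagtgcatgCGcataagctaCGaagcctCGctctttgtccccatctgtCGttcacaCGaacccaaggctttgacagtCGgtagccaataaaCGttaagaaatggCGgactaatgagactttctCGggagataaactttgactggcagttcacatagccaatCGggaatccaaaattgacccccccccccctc
Taf1: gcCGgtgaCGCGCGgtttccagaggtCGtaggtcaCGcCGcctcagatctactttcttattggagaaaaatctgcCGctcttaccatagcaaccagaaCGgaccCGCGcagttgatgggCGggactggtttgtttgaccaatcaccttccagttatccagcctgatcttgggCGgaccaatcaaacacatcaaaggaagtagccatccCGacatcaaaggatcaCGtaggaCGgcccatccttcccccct
The Nono window held 13 CG dinucleotides and the Taf1 window 16, against a median of 5 over 1223 X-linked windows of the same length (quartiles 2 and 12). The first-listed start of Ogt had 15, that of Cited1 13 and Rps4x 7, so CG count did not separate the genes of high share from those of low share. The letters CCAAT, read on both strands, occurred 2 times before Nono, 3 times before Taf1, 1 time before Rps4x and 0 times before the first-listed starts of Ogt and Cited1. They occur in 41.2% of the X-linked windows. RefSeq windows were matched for 5 of the 6 members.

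In wild-type female embryos the genes split into 3 patterns. Taf1, Ogt and Rps4x had shares of 26.8% or more in each of the 7 columns up to E6.5 but VE, Nono was biased to the maternal allele from the 8-cell embryo on, and Ercc6l and Cited1 had shares between 25.6% and 34.4% in 8-cell embryos, morulae and ICM and lay apart in TE, VE and ExE. Over the column series of 8-cell, morula, ICM, TE, epiblast, VE and ExE, the median share of all measured X-linked genes was 42.6%, 26.1%, 8.33%, 4.42%, 47.8%, 0.606% and 4.78%. These are bulk samples, so a low share in every cell and a paternal allele expressed in few cells cannot be told apart, nor can fewer cells of a type and less RNA per cell.

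Taf1 had a paternal share of 56.02% in 8-cell embryos, 54.0% in morulae, 39.5% in ICM, 36.1% in TE, 44% in epiblast, 13.6% in VE and 50.9% in ExE. In ExE the 2 alleles had 4.35 FPKM (maternal) and 4.502 FPKM (paternal), and 98.6% of 347 X-linked genes had a lower share. Its totals were low throughout, between 3.65 FPKM in epiblast and 8.85 FPKM in ExE.

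Rps4x, by far the most abundant member, had shares of 52.6%, 51.5%, 42.5%, 30.8%, 49.5%, 20.2% and 44.8% in the same order of columns. Its paternal allele gave 812 FPKM in morulae, 349 FPKM in TE and 867 FPKM in ExE, beside maternal levels of 765, 781 and 1067 FPKM. The lower share in TE than in morula thus came with a paternal level 0.429 times that of morula and a maternal level of 1.02 times. Ogt also had a lower share in TE and VE than in ExE, at 51.3% in 8-cell embryos, 45.7% in morulae, 45.8% in ICM, 26.8% in TE, 54.5% in epiblast, 15.6% in VE and 41.0% in ExE. Its total was higher in ExE (57.4 FPKM) than in TE (12.98 FPKM), and both alleles were higher, the paternal one 6.75 times and the maternal one 3.57 times.

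VE was the exception for these 3 genes. Rps4x had the highest share of the 6 there and Taf1 had 13.6%, with a paternal level of 0.636 FPKM against 4.03 FPKM maternal. The chromosome-wide median was also lowest in VE among these 7 columns, and within VE the 3 genes still lay above at least 94.1% of 320 X-linked genes. The share of each was higher in ExE than in VE, by 37.3 points for Taf1, 25.3 points for Ogt and 24.6 points for Rps4x. Markers of other tissues were also listed in these columns, in VE at 1 FPKM or more for 1 gene each of the epiblast, ExE and decidua lists. Their part in the result was not tested.

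Nono ran the other way. Its share was 30.8% in 8-cell embryos, 11.5% in morulae, 6.38% in ICM, 1.99% in TE, 14.2% in epiblast, 0.216% in VE and 1.72% in ExE. Paternal Nono gave 27.1 FPKM in 8-cell embryos, 17.9 FPKM in morulae, 9.63 FPKM in ICM and 2.08 FPKM in TE, while the maternal allele stood at 61.0, 137, 141 and 102 FPKM. The morula share was lower than the 8-cell share both because the paternal level was 0.659 times as high and because the maternal level was 2.25 times as high. In the single epiblast sample, where the X-linked median was 47.8%, Nono had 128 FPKM maternal and 21.2 FPKM paternal, and only 3.28% of 305 X-linked genes had a lower share. In each of these 7 columns Nono was below the X-linked median, but the distance was small where that median was low. It was 1.96 points in ICM, 2.43 in TE, 0.39 in VE and 3.06 in ExE. There 44.6%, 39.6%, 31.9% and 23.3% of X-linked genes had a lower share than Nono.

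Ercc6l differed little between the preimplantation columns of the stage table. Its share spanned 1.97 points over the first 4 columns. It had 27.5% in 8-cell embryos, 26.1% in morulae, 25.6% in ICM and 26.5% in TE, a span over which the X-linked median differed by 38.2 points. It then stood at 47.7% in epiblast, 10.7% in VE and 30.6% in ExE. Its totals lay between 5.01 FPKM in VE and 24.4 FPKM in ExE. In the preimplantation columns Ercc6l was thus below the X-linked median in 8-cell embryos and above it in ICM and TE, without a comparable change of its own. It was also above that median in VE and ExE, where its own share differed from the earlier columns. How steady its share was cannot be told from single columns. The control female morulae described below, also wild type for the deletion, had 39.1%, which was 13.03 points higher than the morulae here.

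Cited1 was the member whose total level varied most between tissues. It summed to 414 FPKM in 8-cell embryos, 250 FPKM in morulae, 23.2 FPKM in ICM, 16.2 FPKM in TE, 0.715 FPKM in epiblast, 199 FPKM in VE and 69.2 FPKM in ExE. Its share was 34.4%, 33.3%, 32.2% and 10.05% in 8-cell embryos, morulae, ICM and TE. No share was computed for epiblast, where it was below 1 FPKM. At E6.5 it was 3.71% in VE and 0.879% in ExE, which put Cited1 below the other 5 members in ExE, although its neighbour Rps4x had 44.8% there. The paternal allele of Cited1 in ExE was 0.608 FPKM beside 68.6 FPKM from the maternal one.

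**Figure D1:**
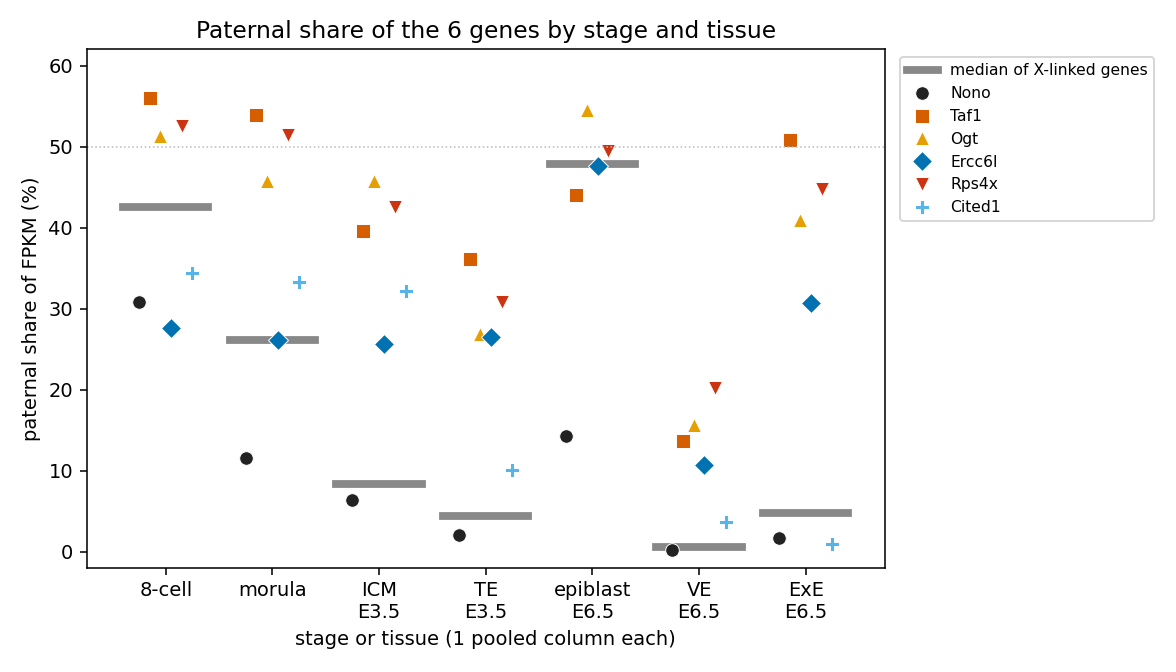
Paternal share (%) of the 6 genes in 7 pooled columns of wild-type female embryos, 1 marker per gene and a grey bar for the median of the measured X-linked genes. Taf1, Ogt and Rps4x lie far above the bar in ICM, TE, VE and ExE. Nono lies below it in all 7 columns, by 0.39 points in VE up to 33.6 points in epiblast, and Cited1 stands at 0.879% in ExE.

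A share of at least 30% was reached by 5 of 6 members in 8-cell embryos, against 71% of X-linked genes. The counts were 4 of 6 in morulae (background 44.6%), 4 of 6 in ICM (16.2%), 2 of 6 in TE (6.59%), 4 of 5 in epiblast (91.1%), 0 of 6 in VE (1.25%) and 4 of 6 in ExE (6.63%). Since the genes were picked for weak dependence on the median in EedmNull ExE, a related readout, these counts are a description. In the single yolk sac sample Taf1, Ogt and Ercc6l had 13.2, 12.3 and 3.20 FPKM from the maternal allele and were listed at 0 for the paternal one. Nono, Rps4x and Cited1 were listed at 0 for both alleles there. Rps4x and Nono are used by nearly every cell, so a 0 in that column is not read as absence of expression.

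Little else between the members was measured. The reference annotation places 21 further genes between Nono and Cited1, of which 5 are in the tables (Itgb1bp2, Cxcr3, Nhsl2, Pin4 and Rtl5, listed as Rgag4). Of these, Pin4 reached 1 FPKM in ExE only, with 112 FPKM and a share of 10.5%, and Nhsl2 in yolk sac only. Pin4 was listed at 0 in every other column. Among the 10 annotated genes on either side, 12 were in the tables and 1 to 5 of them had a share in each of the 7 columns. In ICM those shares were 0% for Il2rg up to 7.87% for Zmym3, and in ExE they were 2.30% for Foxo4 up to 6.498% for Med12. Zmym3, the measured gene next to Nono, had 6.58% in 8-cell embryos and 11.6% in morulae at totals of 3.90 and 2.95 FPKM. In VE they were 0% for Gjb1 up to 5.50% for Il2rg, and in epiblast both Foxo4 and Med12 had 66.7%, above the X-linked median, at totals of 1.08 and 1.28 FPKM.

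The median share of X-linked genes was 54.2% in Xp XRRa KO morulae, against 29.3% in control female morulae. The members differed from each other: Nono and Cited1 had higher shares in the KO by more than 10 points, and the 4 others differed less. Control male morulae carry no paternal X, and there the members had shares of 0.0526% (Nono) to 1.31% (Ercc6l). That is the background of maternal reads assigned to the paternal allele. Paternal reads that are lost or assigned to the maternal allele cannot be seen in males.

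Nono had 21.5 FPKM from the paternal allele in Xp XRRa KO morulae, against 2.95 FPKM in control female morulae, a ratio of 7.28. Its share was 24.3% in Xp XRRa KO and 5.54% in control female morulae, a difference of 18.8 points. The paternal ratio of Nono was above that of 91.8% of 231 X-linked genes, whose median was 2.12. Even so, 4.64% of 280 X-linked genes had a lower share than Nono in the KO. Cited1 had 36.7 FPKM paternal and a share of 44.3% in Xp XRRa KO, against 16.2 FPKM and 27.7% in control female morulae.

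The genes that were near 50% in control female morulae differed less. Taf1 had 47.9% in Xp XRRa KO and 55.4% in control female morulae, Ogt had 54.97% and 49.98%, and Rps4x had 53.1% and 45.4%. Ercc6l had 40.3% in Xp XRRa KO and 39.1% in control female morulae. In total, 2 of 6 members were at least 10 points higher in the KO, against 73.6% of 242 X-linked genes, whose median difference was 20.8 points. A share of at least 30% was reached by 5 of 6 members in the KO (94.3% of X-linked genes) and by 4 of 6 in control female morulae (48.3%).

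Levels in the morula table differed for both alleles. The maternal allele of Taf1 gave 4.12 FPKM in Xp XRRa KO and 2.11 FPKM in control female morulae, a ratio of 1.96, and its paternal allele 3.80 and 2.62 FPKM, a ratio of 1.45. The maternal ratio over X-linked genes had a median of 0.807, and 94.0% of 233 genes had a lower ratio than Taf1. Maternal ratios of Ogt and Ercc6l were 1.497 and 1.51, and that of Nono was 1.33. Rps4x was the exception, with a total of 1165 FPKM in Xp XRRa KO against 1444 FPKM in control female morulae and a maternal ratio of 0.692. These ratios are of pooled columns, and the median over 7426 autosomal genes for the maternal allele was 1.05.

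A second wild-type female morula column, from the stage table, gives a measure of how far such columns differ without the deletion. The share was lower in control female morulae than in stage-table morulae by 6.00 points for Nono, 6.12 points for Rps4x and 5.60 points for Cited1. It was higher in control female morulae by 13.03 points for Ercc6l, 4.24 points for Ogt and 1.43 points for Taf1. The median absolute difference over 221 X-linked genes was 7.49 points. Set against the stage-table morulae, the KO was higher by 12.8 points for Nono, 10.97 points for Cited1 and 14.2 points for Ercc6l. Against either column the difference exceeded the gene's own gap between the wild-type columns for Nono, Cited1 and Ogt, each higher in the KO. The same held for Taf1, which was lower in the KO (differences of -7.47 points from control female and -6.04 points from stage-table morulae). Each such gap is a single value. Both Taf1 differences, and that of Ogt from control female morulae, were smaller than the median gap of 7.49 points over X-linked genes. The Ogt difference was 4.995 points against control female morulae, close to its gap of 4.24 points, and 9.23 points against stage-table morulae. The Rps4x difference was 7.73 points against control female and 1.60 points against stage-table morulae, and that of Ercc6l likewise depended on the column used.

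**Figure D2:**
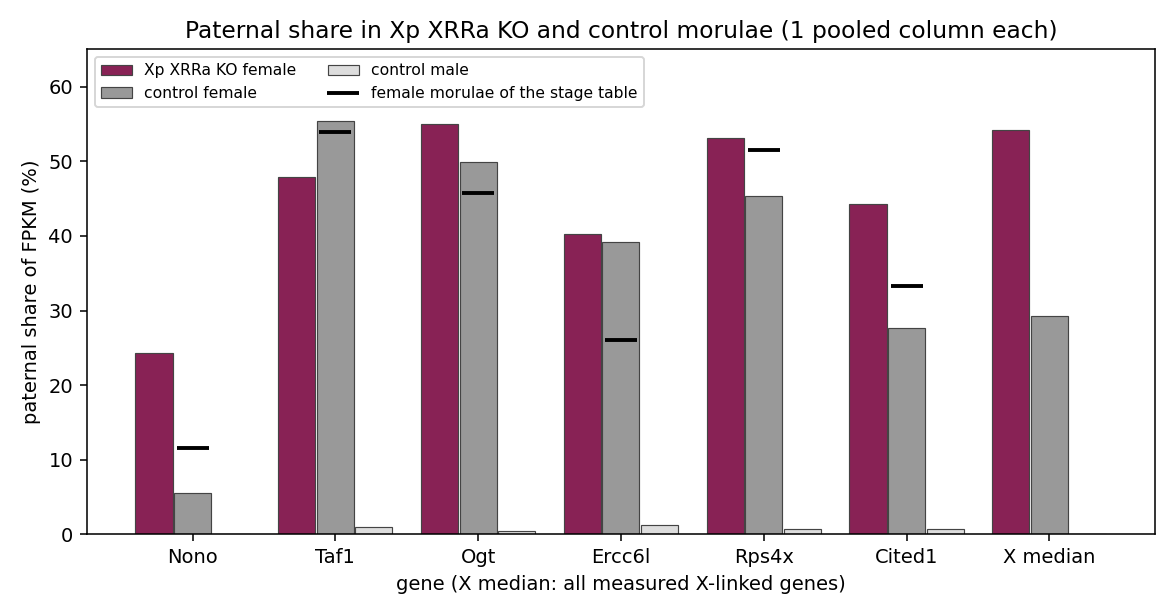
Paternal share (%) of the 6 genes and the X-linked median in Xp XRRa KO female, control female and control male morulae (bars, 1 pooled column each), with the wild-type female morulae of the stage table as black lines. Nono stands at 24.3% in the KO against 5.54% in control females, while the bars of Taf1, Ogt and Rps4x differ by at most 7.73 points from those of control females.

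The 13 EedmNull embryos varied in the paternal share of their X-linked genes. The median share of the X-linked genes outside the neighbourhood was 0% in the lowest embryo, 37.2% in the middle one and 80.6% in the highest, with 9 embryos below 50% and 4 above. These too are bulk samples, so a mixture of cells with either X active and cells with both active cannot be told apart. This spread allows each gene to be followed as the share of the rest of the chromosome goes from mostly maternal to mostly paternal. The slope given here is the change in a gene's share, in points, per point of that embryo median. Over 258 X-linked genes the slope had a median of 0.962 (quartiles 0.831 and 1.05). A typical slope near 1 is built in, because the embryo median is taken over X-linked genes themselves.

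Taf1 had the lowest slope of the 258, 0.0842 ± 0.0734 (SE, n = 13 embryos). Its share was 41.4% in the lowest embryo, 53.0% in the middle and 64.2% in the highest. In the embryo of lowest median Taf1 had 45.7%, and in the embryo of highest median it had 53.0%. The alleles thus had similar levels at either end, in embryos whose values the choice of members used. Log2 FPKM plus 1 changed by -0.04 ± 0.04 per 10 points for the maternal and -0.00 ± 0.03 for the paternal allele (SE). The corresponding medians over 300 X-linked genes were -0.16 and 0.29.

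Ogt had a slope of 0.162 ± 0.0386 and shares of 36.6% to 53.2%, with a mean of 45.5% ± 5.41 (SD, n = 13). Rps4x had a slope of 0.367 ± 0.0355, shares of 23.5% to 59.8% and a mean of 43.2% ± 10.1. Taf1, Ogt and Rps4x lay above the embryo median in 10, 10 and 9 of 13 embryos, and below it in the embryos of highest median. In the embryo of highest median, Taf1 was 27.6 points, Ogt 30.2 points and Rps4x 20.8 points below the rest of the chromosome. The weak dependence on the median thus ran in both directions.

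Rps4x combined a changing allele ratio with a steady sum, which was not particular to it. Per 10 points of median, log2 FPKM plus 1 of its total changed by 0.02, against a median of 0.01 over 300 X-linked genes. The SD of the total was 10.3% of the mean for Rps4x and 9.52% for Nono. The maternal allele of Rps4x ranged over 1051 to 1843 FPKM and its paternal allele over 565 to 1596 FPKM. Its total had a mean of 2496 ± 258 FPKM (SD, n = 13). The paternal level was above the maternal one in 4 of 13 embryos. Ogt totals were 17.2 to 34.2 FPKM and Taf1 totals 3.88 to 9.15 FPKM, so a Taf1 share rests on little RNA per embryo.

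Nono had a slope close to that of Rps4x, 0.371 ± 0.0381, but from another level. At an embryo median of 50% the fitted share was 15.9% for Nono and 49.1% for Rps4x. Nono shares were 0.0742% in the lowest embryo, 10.1% in the middle and 33.8% in the highest, with a mean of 9.97% ± 10.2 (SD, n = 13). The maternal allele gave 66.0 to 135 FPKM and the paternal allele 0.0911 to 33.7 FPKM, and the paternal one was above the maternal one in 0 of 13 embryos. Nono was the lowest of the 6 genes in 13 of 13 embryos. Its low slope has a form of its own: the points lie near 0 where the median is low and fall up to 46.8 points behind as the median rises.

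The slopes of Ercc6l and Cited1 were less flat. Ercc6l had 0.549 ± 0.0403, with shares of 13.01% to 66.2%, and Cited1 had 0.753 ± 0.0373, with shares of 1.70% to 66.0%. Both lay under the X-linked median slope, but 50 genes had a lower slope than Cited1, so Cited1 goes against the description of weak dependence by which the group was picked. A slope under 0.5 was found for Nono, Taf1, Ogt and Rps4x, 4 of 6 members, against 7.75% of X-linked genes, a readout the choice of members used. The nearest slopes on either side of that threshold were 0.371 for Nono and 0.549 for Ercc6l.

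**Figure D3:**
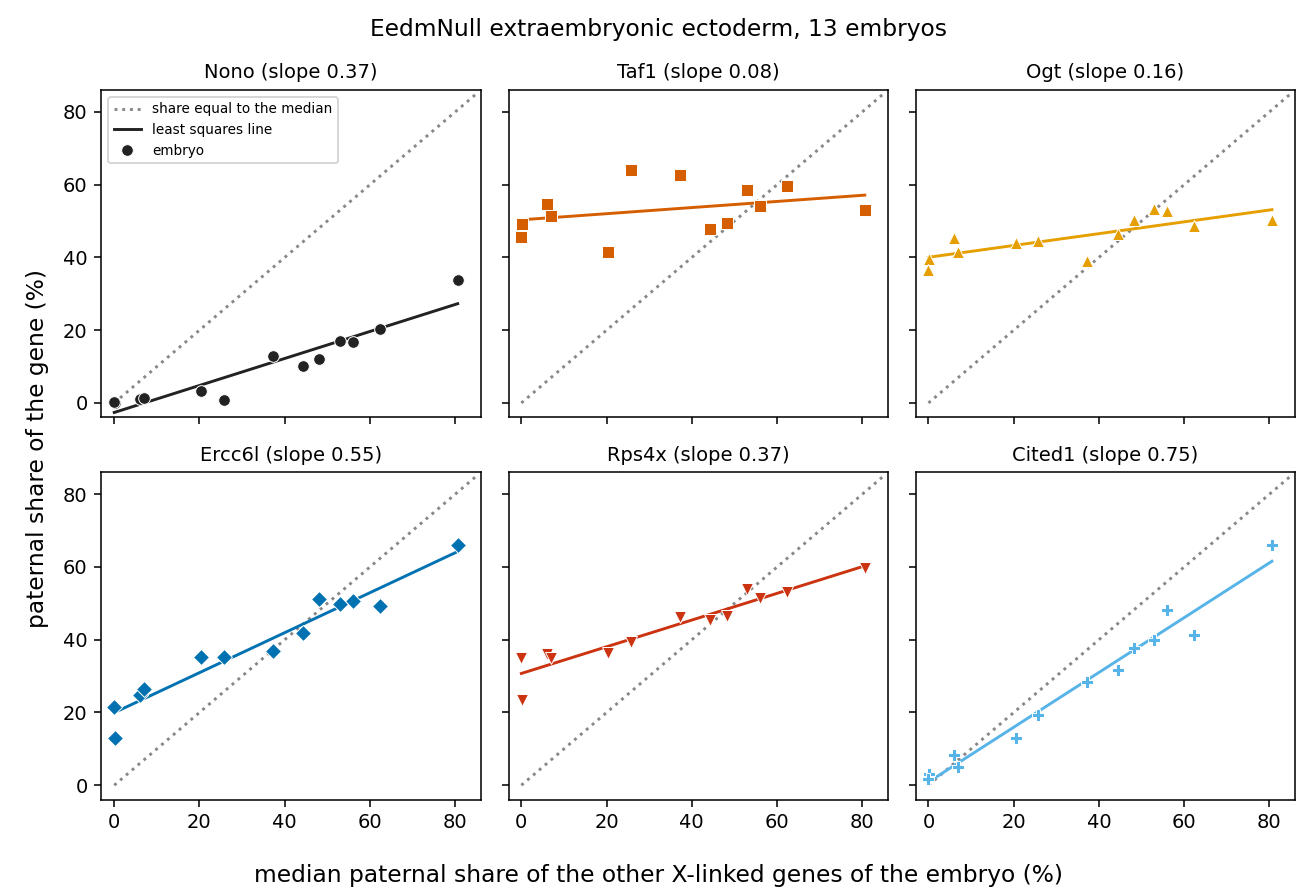
Paternal share (%) of each gene against the median share of the X-linked genes outside the neighbourhood, 1 marker per EedmNull embryo, with the least squares line and a dotted line where both are equal. The Taf1 and Ogt points form a nearly level band that crosses the dotted line, those of Nono reach 33.8% at most and those of Cited1 lie below it in 10 of 13 embryos, with differences down to -21.1 points.

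By the median share over the 13 embryos, 3 of 6 members were balanced (40% to 60%): Taf1 at 53.0%, Ogt at 45.4% and Rps4x at 45.4%. The background was 28.7% of X-linked genes, and that class can hold genes that follow the embryo fully. The members below 40%, classed as maternal-biased, were Ercc6l at 37.0%, Cited1 at 28.3% and Nono at 10.1%. The X-linked median of the middle embryo was itself 37.2%, so this class too can hold genes that follow the embryo. Ercc6l lay above the embryo median in 7 of 13 embryos. The values nearest to the limit of 40% were 37.0% for Ercc6l outside it and 45.4% for Rps4x inside it. Embryo by embryo, Nono was below Rps4x by a mean of 33.2 points ± 4.12 (SD, n = 13), the narrowest spread among the pairs with Nono. Cited1 was below Ercc6l in 13 of 13 embryos, by 0.186 to 22.1 points.

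Along the embryo median the paternal level had a positive slope and the maternal level a negative one in Nono, Ercc6l, Rps4x and Cited1. Per 10 points of median, log2 FPKM plus 1 of the paternal allele changed by 0.65 ± 0.07 for Nono, 0.47 ± 0.08 for Cited1, 0.19 ± 0.04 for Ercc6l and 0.14 ± 0.03 for Rps4x (SE, n = 13 embryos). The maternal allele changed by -0.09 ± 0.02 for Nono, -0.23 ± 0.06 for Cited1, -0.10 ± 0.03 for Ercc6l and -0.08 ± 0.02 for Rps4x. Ogt had the same signs with smaller slopes, 0.05 ± 0.03 for the paternal and -0.04 ± 0.03 for the maternal allele. Totals stayed between 99.3 and 135 FPKM for Nono and between 7.99 and 15.2 FPKM for Ercc6l. Cited1 totals varied more, between 34.1 and 132 FPKM.

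**Figure D4:**
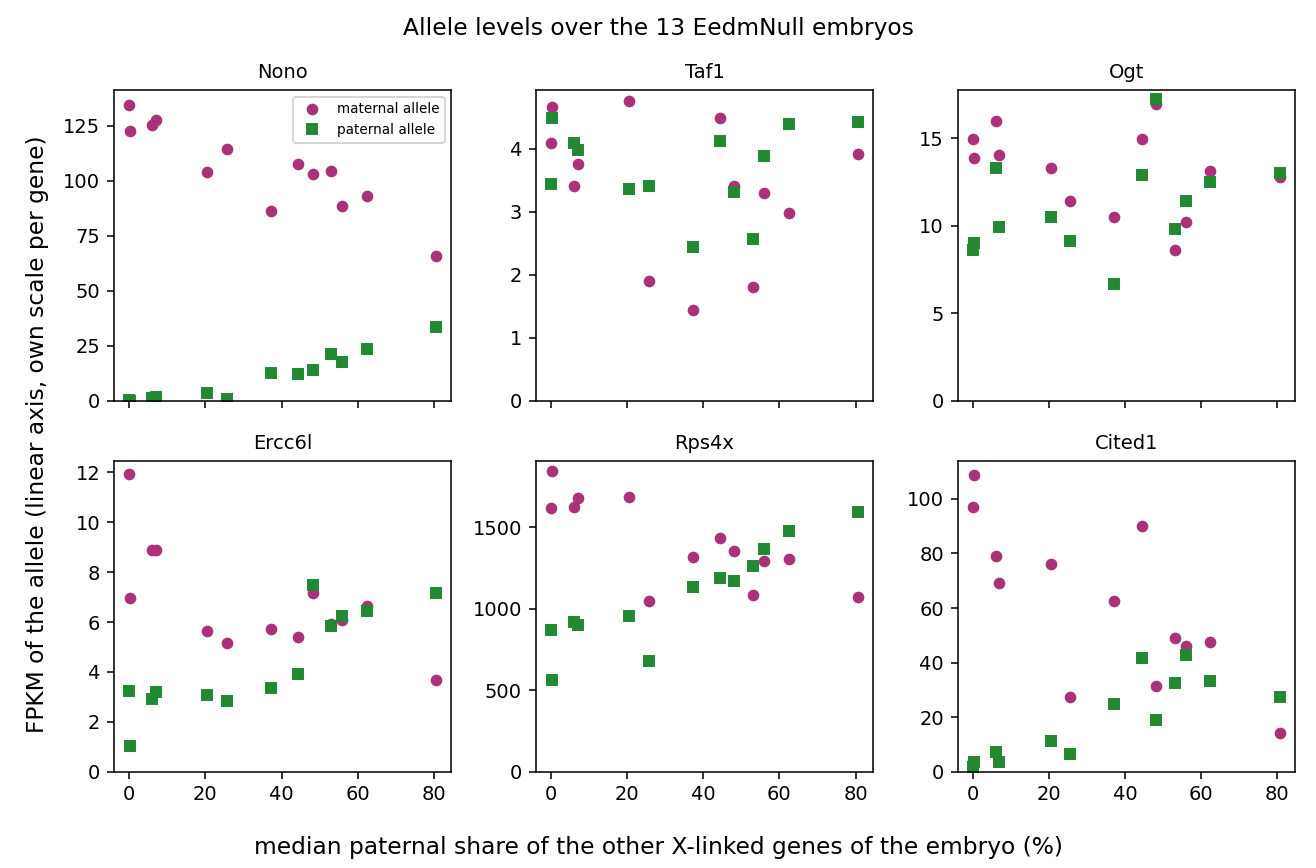
Maternal (circles) and paternal (squares) FPKM of each gene against the X-linked median share (%) of the embryo, on a linear axis with its own scale per gene. The alleles of Taf1 interleave over the whole axis, the maternal Ogt allele is the higher one in the 8 embryos of lowest median, those of Rps4x and Ercc6l cross, and the paternal Nono allele reaches 33.7 FPKM without meeting the maternal one.

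EedmNull ExE was sampled at E7.5 and wild-type ExE at E6.5, in tables normalized separately, so only shares are set side by side, and the mutation, the stage and the table cannot be told apart. The X-linked median share was 4.78% in wild-type ExE. Over EedmNull embryos, outside the neighbourhood, it was 0% to 80.6%, with 37.2% in the middle embryo. A share above wild type was thus not particular to the members. Cited1 had 1.70% to 66.0% in EedmNull embryos against 0.879% in wild type, with 13 of 13 embryos above it. Nono had 0.0742% to 33.8% against 1.72% in wild type, with 8 of 13 embryos above. The other 4 members had wild-type values inside the range of the EedmNull embryos, with 8 (Taf1), 10 (Ogt), 9 (Ercc6l) and 7 (Rps4x) of 13 embryos above.

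**Figure D5:**
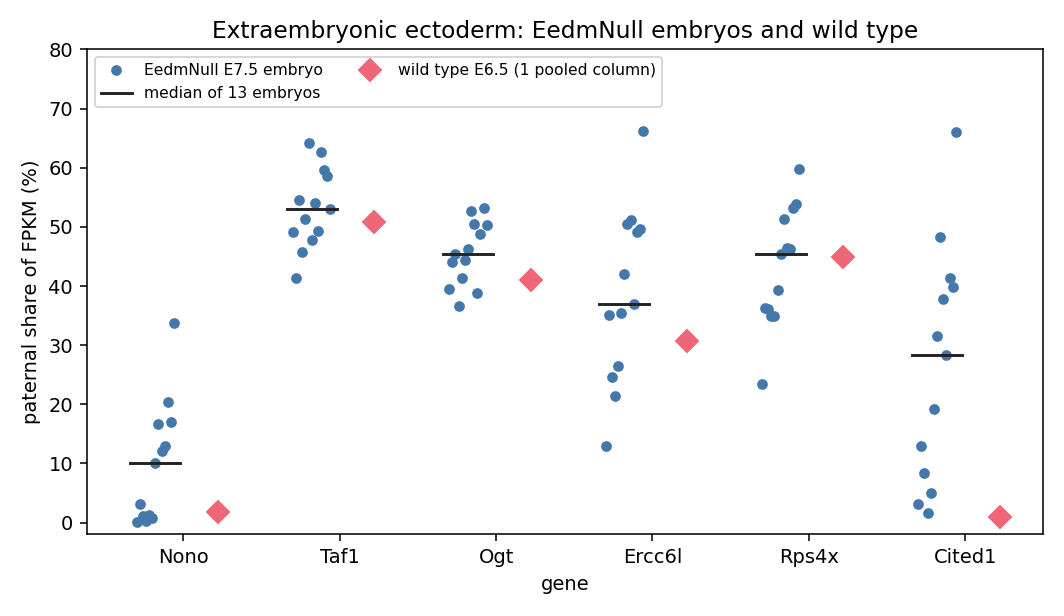
Paternal share (%) in extraembryonic ectoderm of the 13 EedmNull embryos (circles, with a bar at their median) and of wild type (diamond, 1 pooled column) for each gene. The wild-type value lies within the circles for Taf1, Ogt, Ercc6l and Rps4x, in the lower part for Nono and below all 13 for Cited1.

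Nono had a low share also where the rest of the X was near equal expression of both alleles. It stood 11.8 points below the X-linked median in 8-cell embryos, 33.6 points below in epiblast and 29.9 points below in Xp XRRa KO morulae, and it had a fitted 15.9% at an embryo median of 50% in EedmNull ExE. Cited1 lay below the X-linked median too, but less far, by 8.16 points in 8-cell embryos and 9.96 points in Xp XRRa KO morulae (share 44.3%). Its fitted share was 38.5% in EedmNull ExE at a median of 50%. Ercc6l had 47.7% in epiblast and a fitted 47.4%. In Xp XRRa KO morulae, however, Ercc6l was 13.9 points below the X-linked median. In 8-cell embryos it was 15.1 points below, further than Nono.

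The X-linked genes outside the neighbourhood with the most similar shares differed between the members. Over the wild-type columns, the nearest to Taf1 were Rbm3 (mean absolute difference 6.02 points over 7 columns), Kdm5c and Eif2s3x, and the nearest to Ogt and Rps4x also included Eif2s3x and Rbm3. Kdm5c, and Kdm6a among the nearest 3 to Rps4x, are histone demethylase genes known to escape X inactivation, and Eif2s3x, a translation initiation factor subunit, is another escape gene. Over the 13 EedmNull embryos Atrx and Eif2s3x were among the nearest 3 to each of Taf1, Ogt and Rps4x, with mean absolute differences of 5.31 to 11.1 points. Nono was nearest to Klhl15 over the wild-type columns (1.39 points, 6 columns) and to Pbdc1, which is on the escape list used here, over the EedmNull embryos (6.43 points). Ercc6l was nearest to Zrsr2 over the wild-type columns (6.203 points) and to Ddx3x, an escape gene for an RNA helicase, over the embryos (3.82 points). Cited1 was nearest to Tsr2 (4.46 points) and to Alg13 (3.72 points), with 1810030O07Rik of the escape list second over the embryos (3.84 points).

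Among 13 genes listed as known escape genes, 8 or 9 were measured in each of the 7 wild-type columns. Their median share was 22.2% in TE and 20.7% in ExE, against 26.8% to 36.1% in TE and 41.0% to 50.9% in ExE for Taf1, Ogt and Rps4x. In ExE the list ran between 6.58% for 1810030O07Rik and 40.6% for Eif2s3x. Each of these 3 members was thus above the highest listed gene in ExE, Ogt only barely (41.0% against 40.6%). These are single pooled values of genes picked by a related readout, and no test of that difference was run. In other columns the order differed. The highest listed gene was 5530601H04Rik at 50.4% in ICM, 1810030O07Rik at 42.6% in TE and Eif2s3x at 35.4% in VE, each above the highest member, which had 45.8%, 36.1% and 20.2%.

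Autosomal genes for partner proteins of the members served as a measure of what the allele assignment gives for genes that are not on the X. Of 70 listed genes 68 were autosomal, and their median shares were between 48.0% and 50.8% in the 7 wild-type columns. In ExE the subunits of TFIID other than Taf1 had a median of 47.7% (12 measured) and the other small ribosomal subunit proteins 48.0% (17 measured). Single genes departed from this. Plk1, a mitotic kinase, had 99.6% to 100% in the 7 wild-type and 3 morula columns, Rps13 had 2.84% in ExE and Cited2 had 0% in morulae. Strong allelic bias of single genes was thus also listed on autosomes, and the part of such a bias in the low share of Nono was not tested.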

How the data were processed

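The deposited values were FPKM per gene, computed by the authors for the maternal and the paternal allele; per the submitters' processing notes the tools were Trim Galore 0.6.4, HISAT2 2.2.0 and StringTie 2.1.1, with the mm9 assembly. The allele assignment is not given in the sources used here. Stage and morula tables held 1 pooled column per allele and group (epiblast and yolk sac are single samples), and the EedmNull table a column per allele and embryo. Low FPKM values did not fall on a common step between columns, so no reads were recovered, depth is unknown and no interval for counting error was computed. Whether reads unable to tell the alleles apart enter these values is not given either. 5 summary lines were left out.

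A total adds the 2 alleles, and a share needed a total of at least 1 FPKM. Because each table has its own normalization, no level is compared across them. Embryo medians left out the genes of the neighbourhood, 10 annotated genes on either side included; slopes came from least squares over 13 embryos and, for levels, from log2 of FPKM plus 1. The slope fit was tested on simulated data. No hypothesis test was run: 2 tables have 1 value per group, and the third picked the members. In place of a test, a difference of at least 10 points was counted. The 6 members and all gene lists were chosen with earlier results of these data known. Named genes were the members, the genes between them, the flanking genes of highest and lowest share, the highest, lowest and middle gene of each list, and the 3 X-linked genes of nearest share (smallest mean absolute difference, at least 6 columns or 10 embryos). Zmym3 in 8-cell embryos and morulae also falls under the flank rule. The reference, GRCm38.p6, differs from mm9 and served only for gene order, chromosomes and RefSeq promoter windows; it matched 23951 of 24083 stage-table names. The alternatives changed the FPKM minimum, the amount added per allele, the class limits, the embryo value and the wild-type column. Software was Python 3.11.15 with numpy 2.4.6, pandas 2.3.3 and matplotlib 3.10.9.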

Additional observations from a re-analysis of the deposited data

How the results depend on the processing

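With a share of at least 40% in place of 30%, 15 of 41 member values in the 7 wild-type columns passed, against 23. With a difference of at least 20 points in place of 10, 0 members were higher in Xp XRRa KO morulae, against 2. The other 15 alternatives of the 4 counts stayed within 1.5 times; balanced limits of 35% to 65% added Ercc6l (4 of 6), and the stage-table morulae as comparison gave 3 members, adding Ercc6l at 14.2 points. Slopes over all alternatives were 0.0595 to 0.120 for Taf1, 0.144 to 0.190 for Ogt, 0.367 to 0.403 for Rps4x, 0.315 to 0.406 for Nono, 0.533 to 0.596 for Ercc6l and 0.715 to 0.819 for Cited1. Adding 0.1 FPKM to each allele moved no wild-type share by more than 1.51 points. No paired test was run. The pooled columns carry no replicate numbers, and differences between members within an EedmNull embryo were only described. The read depth behind each share is unknown, also for totals of a few FPKM such as those of Taf1 and of the flanking genes.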
